A study of Mus musculus with 24 samples.

Results

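Untreated skin and untreated bone were compared in 8 libraries, 4 of each tissue, out of the 24 libraries of a series on a mouse sarcoma model. They are all of the libraries labelled Untreated; the 16 labelled F-PRT or S-PRT were not used. Per the labels, all 8 came from female mice aged 10 weeks, held polyA RNA and were sequenced as read pairs of 2 by 150 bases. No allele, agent or treatment is named for either group, so the 2 groups are described as untreated tissue of unstated strain. The body site of the skin, the bone and its handling before extraction, whether the mice carried tumours, and whether a skin and a bone library of the same number came from the same mouse were not stated in the labels. Replicates are labelled as biological, with no statement that each was a separate animal, and p-values measure the spread between these libraries.

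Skin carries a stratified epithelium, the epidermis, in which basal keratinocytes divide and their daughters move outward, change keratins and end as cornified cells. Hair follicles, sebaceous glands, pigment cells, nerves, fat and a collagen-rich dermis complete the organ. Bone is built by osteoblasts, maintained by osteocytes, resorbed by osteoclasts and capped by cartilage, and its cavities hold the marrow in which blood cells form. Ionising radiation damages DNA in both tissues. Cells answer through damage kinases, the transcription factor p53 and its targets, DNA repair, cell cycle arrest, cell death and inflammatory signals, and the genes of these pathways have a level in each tissue before any exposure.

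Some genes that set the 2 tissues apart were picked by hand. They are markers of cells that one tissue holds and were far higher in that tissue. The sequences just upstream of them are shown first. Each is the 120 bases before the RefSeq transcription start on GRCm38.p6, written 5′ to 3′ on the strand of the gene, and capitals mark matches, on either strand, to 4 motifs. TATAAA is the core of a TATA box. TGANTCA is a relaxed form of the AP-1 site TGA(C/G)TCA, with any base allowed at N. CCACACCC is a CACCC box and AGATAA is a GATA site. Lor (loricrin, chr3:92083143-92083262, minus strand), Ivl (involucrin, chr3:92573736-92573855, minus strand), Flg (filaggrin, chr3:93273426-93273545, plus strand) and Krtdap (keratinocyte differentiation-associated protein, chr7:30787785-30787904, plus strand) are genes of the outer epidermis.
Lor: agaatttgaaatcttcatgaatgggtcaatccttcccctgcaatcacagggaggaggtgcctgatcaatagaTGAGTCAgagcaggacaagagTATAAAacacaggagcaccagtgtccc
Ivl: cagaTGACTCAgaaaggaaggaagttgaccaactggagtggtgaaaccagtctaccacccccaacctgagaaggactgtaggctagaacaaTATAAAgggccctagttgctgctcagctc
Flg: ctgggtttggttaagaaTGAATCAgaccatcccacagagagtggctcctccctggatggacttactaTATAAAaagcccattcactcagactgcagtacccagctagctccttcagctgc
Krtdap: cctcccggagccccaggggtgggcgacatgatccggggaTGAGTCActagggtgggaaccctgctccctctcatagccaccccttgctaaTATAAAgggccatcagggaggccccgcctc
Each of these 4 windows held both TATAAA and TGANTCA, although the match in Flg, TGAATCA, lies outside the stricter AP-1 form. The 4 genes do not stand for epidermal genes at large. Among windows of the skin-restricted genes defined further on, 9 of 276 (3.26%) held both motifs. In these windows TATAAA began 27 bases before the start in Lor, 29 in Ivl, 53 in Flg and 30 in Krtdap, and TGANTCA began 48, 116, 103 and 81 bases before it.

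Hbb-bs (beta-globin, chr7:103827929-103828048, minus strand) and Alas2 (the erythroid enzyme of the first step of heme synthesis, chrX:150547297-150547416, plus strand) are genes of red cell precursors. Bglap (osteocalcin, chr3:88384467-88384586, minus strand) and Ibsp (bone sialoprotein, chr5:104299167-104299286, plus strand) are genes of osteoblasts.
Hbb-bs: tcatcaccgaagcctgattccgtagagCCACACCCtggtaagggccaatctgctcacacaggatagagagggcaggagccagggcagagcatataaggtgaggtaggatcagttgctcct
Alas2: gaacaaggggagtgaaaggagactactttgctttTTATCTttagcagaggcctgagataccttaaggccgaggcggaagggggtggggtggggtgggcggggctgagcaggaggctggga
Bglap: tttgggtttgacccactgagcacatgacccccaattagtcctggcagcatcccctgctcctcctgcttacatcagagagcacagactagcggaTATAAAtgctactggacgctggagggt
Ibsp: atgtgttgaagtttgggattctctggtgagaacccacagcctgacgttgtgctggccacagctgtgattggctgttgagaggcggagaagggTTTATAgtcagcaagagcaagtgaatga
CCACACCC began 93 bases before the start of Hbb-bs, and AGATAA lay on the reverse strand 86 bases before that of Alas2. TATAAA began 27 bases before the start of Bglap and lay on the reverse strand 28 bases before that of Ibsp.

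Over all 32851 such windows of 27025 genes in the RefSeq table, 6.34% held TATAAA, 3.41% TGANTCA, 1.84% CCACACCC and 4.36% AGATAA, and 0.359% held both TATAAA and TGANTCA. Among the windows of the protein-coding genes called restricted to skin by the level rule given further on (276 windows, 235 genes matched of 336), the shares were 12.3% for TATAAA, 10.5% for TGANTCA, 3.26% for CCACACCC and 5.8% for AGATAA, and 9 windows (3.26%) held both of the first pair. Among those restricted to bone (127 windows, 113 genes matched of 165), they were 11.8%, 3.15%, 3.15% and 9.45%, with 1.57% holding both. These shares are a description without a test, and those of TGANTCA count matches with any base at N. A match is a match of letters and says nothing of binding.

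Total counts were 16711414 to 21201568 per skin library and 10909649 to 16211858 per bone library. Levels are given in TPM, a share of all transcripts that corrects for transcript length and can be compared between genes, always in the order of replicates 1 to 4. Small noncoding RNA enters the same total, and took 48.2 to 71.7% of all TPM in skin and 47.5 to 65.7% in bone. Within it 7SK and 7SL RNA, which are made without a polyA tail, held 15 to 25.8% and 12.8 to 28.1% of all TPM over the 8 libraries, although the labels give polyA RNA. Whether the selection worked alike in all libraries was not tested, and it bears on every TPM level. Nuclear protein-coding genes held 39.3% of the TPM in skin replicate 1 against 20.5 to 25.6% in the other skin libraries, and 23.9% in bone replicate 1 against 36.5 to 45.3% in the other bone libraries. TPM of most genes were therefore high in skin replicate 1 and low in bone replicate 1 within their tissue. Skin replicate 1 also had 9.28% of its counts on rRNA-like gene models, against 0.0408 to 0.0696% in the other skin libraries. Differences between tissues are log2 values, skin minus bone, from the edgeR quasi-likelihood test on TMM-scaled counts, with a standard error (SE) and a Benjamini-Hochberg adjusted p, and a gene is called at an adjusted p under 0.05. The SE was derived from the difference and the F statistic of its test, and is approximate. Because the test scales counts and TPM divides by all RNA, a TPM ratio and a tested difference can differ.

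Of 18736 genes tested, 11468 (61.2%) were called, 5782 (30.9%) higher in skin and 5686 (30.3%) higher in bone, and 7268 were not called. The difference was at least 2-fold in 3627 of the genes higher in skin and 4063 of those higher in bone, and at least 10-fold in 1110 and 1047. The median log2 difference over all tested genes was 0.01. Counts of called members of a list are to be read beside the shares of 30.9% and 30.3% over all genes. Among nuclear protein-coding genes, 12126 had a mean of at least 1 TPM in skin, 12048 in bone and 10872 in both, so most of the genes of either tissue were expressed in the other. Without replicate 1 of both tissues, 6516 genes were higher in skin and 6462 in bone. Without bone replicate 1 alone the counts were 6552 and 5364 and the median log2 difference was 0.12.

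A few gene classes made up much of the messenger RNA in bone, and fewer did in skin. The 8 globin genes held 24% ± 1.87 (SD, n = 4) of the TPM of nuclear protein-coding genes in bone (21.4, 24.4, 24.3 and 25.9%) and 0.00876 to 0.0264% in skin. Keratin genes held 2.44% ± 0.751 in skin (3.54, 1.86, 2.22 and 2.14%) and a mean of 0.00169% in bone. The late cornified envelope and small proline-rich genes, which harden the outer epidermis, held 1.1% ± 0.227 in skin and a mean of 0.000302% in bone. Ribosomal protein genes held 15.4% ± 0.909 in skin and 6.71% ± 0.842 in bone, and the groups did not overlap. Collagen genes held 0.202% ± 0.0375 in skin and 0.749% ± 0.3 in bone. The 10 highest genes of a library held 7% ± 0.566 in skin and 29.8% ± 1.33 in bone.

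**Figure D1:**
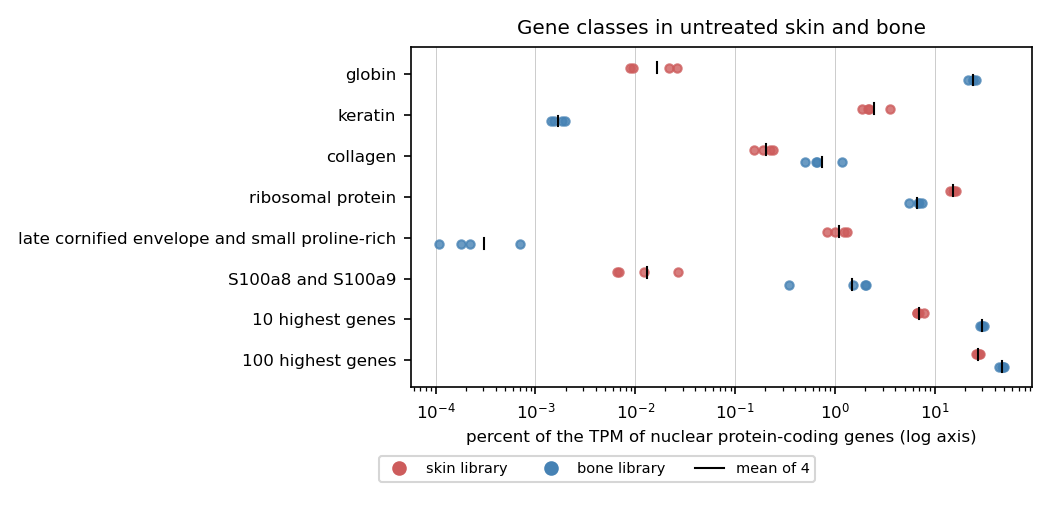
Share of the TPM of nuclear protein-coding genes held by 6 gene classes and by the 10 and 100 highest genes of each library, in percent on a log axis; points are the 4 skin (red) and 4 bone (blue) libraries, with a bar at each mean. Globin and S100a8 with S100a9 sit far to the right in bone, keratin and cornified envelope genes far to the right in skin, and the ranges of the tissues do not overlap in any row.

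Genes were ranked by mean TPM among nuclear protein-coding genes, with gene models named Gm or Rik and receptor segments left out. The genes of highest mean TPM in skin included those of keratinocytes and of translation, and the actin gene Actb. Eef1a1, a translation elongation factor, was at 5764, 3232, 3364 and 3073 TPM in skin, and Rpl41, Tpt1 and Rps24 were also among the 10 highest. Dmkn and Cst6, secreted products of keratinocytes, stood at 2730, 1252, 1289 and 1025 TPM and at 2902, 1415, 904 and 861 TPM. In bone the 10 highest by this rule held 4 globin genes, S100a8, Ngp, Actb, Eef1a1 and the histone genes Hist1h3i and Hist1h3h. The gene model Gm10800, which the rule leaves out, was at 6642, 3170, 1975 and 2881 TPM in bone. Its mean of 3667 TPM was above that of Actb (3631). The histone pair codes for the same protein, and the division of reads between such copies is an estimate. Hist1h3i was at 435, 243, 236 and 176 TPM in skin and 1411, 2890, 3148 and 3428 in bone (log2 -3.29, SE 0.24, adjusted p 1.11e-06).

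A gene was counted as restricted to one tissue when its mean there was at least 10 TPM and it stayed under 1 TPM in every library of the other. By this rule 357 genes were restricted to skin, 336 of them protein-coding, and 59 of the 357 had 0 counts in all bone libraries. Bone had 231, of which 165 were protein-coding, and 57 of the 231 had 0 counts in all skin libraries. The protein-coding ones include gene models such as Gm10800, Gm10801 and Gm21738, each highest in bone replicate 1. With TPM rescaled to nuclear protein-coding genes, which leaves only those to count, bone had 128. The cornified list gave 22 of the skin genes, and the epithelial junction and epithelial transcription factor lists 9 each. The erythroid list gave 15 of the bone genes, the later neutrophil granule list 9, the blood transcription factor list 8 and the cartilage list 5.

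Keratinocyte genes were higher in skin. In the basal list, 14 of 14 measured genes were higher in skin, with a median log2 difference of 7.65 against 0.01 over all genes. Krt5 and Krt14 form the keratin filaments of basal cells. Krt5 was at 2445, 923, 1243 and 835 TPM in skin and at 0.05, 0.04, 0 and 0 in bone (log2 15.75, SE 0.68, adjusted p 3.2e-08). Krt14 was at 2296, 834, 1153 and 733 TPM in skin and had 1 count in bone against 194095 in skin, a ratio of 156688 with a 95% counting interval from 28122 to 6188884. Trp63, the transcription factor of stratified epithelia and a relative of p53, was at 109, 86.3, 99.3 and 66.7 TPM in skin and 0.37, 0.1, 0.42 and 0.25 in bone (log2 8.71, SE 0.37). Genes of the attachment to the basement membrane followed, with Col17a1 at a mean of 170 TPM ± 72.2 in skin and 0.265 ± 0.0252 in bone. Itga6, an integrin that blood cells and vessels also carry, had the smallest difference of the list at log2 1.93, with 95.5 TPM ± 26.3 in skin and 25.8 ± 2.83 in bone.

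In the suprabasal and cornified list, 27 of 27 measured genes were higher in skin (median log2 12.65, or 12.52 with genes at 0 counts in bone set at their bound). Krt1 and Krt10, the keratins of the layers above the basal one, had means of 650 TPM ± 514 and 1578 ± 1118 in skin and of 0.05 and 0.11 in bone. Lor was at 536, 172, 191 and 158 TPM in skin and at most 0.09 in bone (log2 12.29, SE 0.56, adjusted p 4.55e-08), and Flg at 71.3, 32.8, 57.8 and 48.4 TPM in skin and at most 0.5 in bone. Krtdap was among the 10 highest genes of skin, at 4248, 2150, 2170 and 1935 TPM, and reached 0.44 in bone. Ivl had 8821 counts in skin and 2 in bone, a ratio of 3560 (95% counting interval 985 to 29405). Dsc1, a desmosomal cadherin, had 56105 counts in skin and 0 in bone, at least 15097-fold higher. Tgm1, the enzyme that cross-links the envelope, had the smallest difference, with 51.9, 27, 31.6 and 17.1 TPM in skin and 0.27, 1.28, 1.13 and 2.2 in bone (log2 4.71). Skin replicate 1 was the highest skin library for each of these 8 genes, and by mean log2 CPM both keratinocyte lists were also higher in every other skin library than in any bone library.

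Cell junction and transcription factor genes of epithelia gave the same count. All 20 measured junction genes (median log2 7.69) and all 14 transcription factor genes (median 7.14) were higher in skin. Cdh1 (E-cadherin) was at 119, 53.9, 58 and 48 TPM in skin and 0.36, 0.87, 1 and 0.89 in bone, and Dsp (desmoplakin) at 510, 246, 303 and 253 TPM against 0.04, 0.1, 0.21 and 0.15. Klf4 had 106 TPM ± 55.4 in skin and 9.17 ± 2.62 in bone, and Gata3, a factor also of lymphocytes, 77.4 ± 30.9 against 0.908 ± 0.329. Grhl3, a regulator of barrier formation, had 6418 counts in skin and 2 in bone (ratio 2591, 95% counting interval 717 to 21396). Elf3 was near the lower end of detection in both tissues, with overlapping values of 0.68, 0.9, 0.29 and 0.21 TPM in skin and 0.23, 0.05, 0 and 0.05 in bone. Its adjusted p of 0.0154 became 0.0514 without bone replicate 4. In the list of 10 largest differences towards skin, besides members of these lists, were Pof1b, the beta-defensin Defb6 and the cornified envelope gene Lce1c, each with 0 counts in all 4 bone libraries (at least 13808-fold, 5594-fold and 5272-fold higher in skin). Defb6, an antimicrobial peptide gene, was at 2002, 1623, 909 and 810 TPM in skin.

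**Figure D2:**
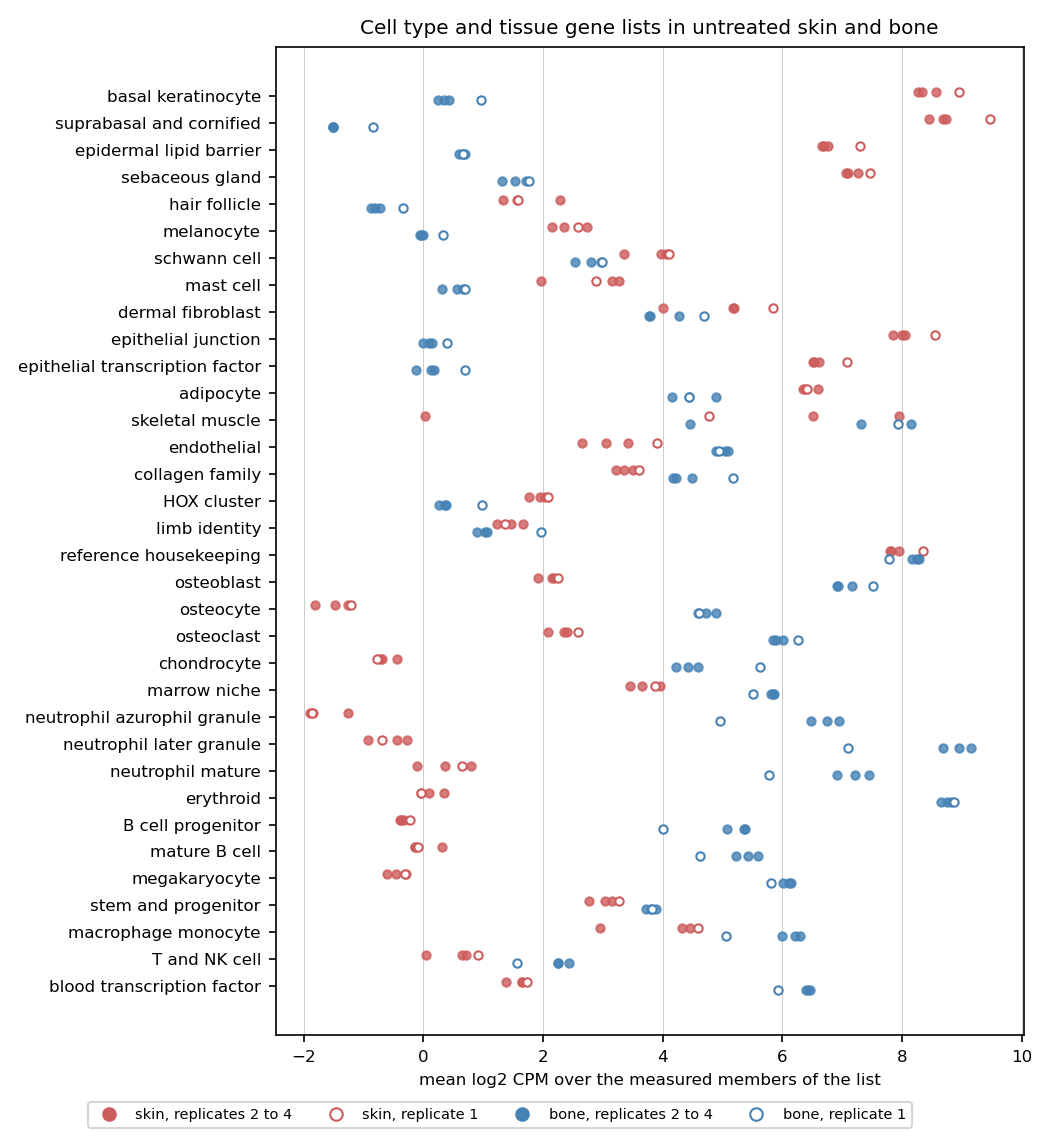
Mean log2 CPM (counts scaled to library size) over the measured members of each cell type or tissue list in each library; red is skin, blue is bone, and open circles are replicate 1 of either tissue. The keratinocyte lists lie to the right in skin and the blood lists in bone, the skeletal muscle row is spread over both tissues, and bone replicate 1 lies to the left of the other bone libraries in the neutrophil and B cell rows.

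The genes that make the lipids of the skin barrier were higher in skin in 12 of 12 cases (median log2 6.94), and those of the sebaceous gland in 14 of 14 (median 4.94). Elovl4, which elongates the very long fatty acids of barrier ceramides, was at 490, 314, 318 and 199 TPM in skin and at most 0.26 in bone (log2 11.19, SE 0.35, adjusted p 9.02e-09). Abca12, the lipid transporter of lamellar granules, had 70.9 TPM ± 14 in skin and 0.08 ± 0.0688 in bone. Acer1, an epidermal ceramidase, had 8512 counts in skin and 1 in bone (ratio 6872, 95% counting interval 1233 to 271442). Among sebaceous genes, Scd3, a fatty acid desaturase, was at 128, 127, 121 and 43.9 TPM in skin and at most 0.09 in bone. Its relative Scd1 was at 896, 734, 581 and 548 TPM in skin but also at 77.7, 126, 193 and 150 in bone (log2 2.45). Plin2, a coat protein of lipid droplets in many cells, had the lowest difference of this list at log2 1.77.

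Most keratins of the growing hair shaft were too low to be tested. Of 24 hair follicle genes 10 were measured, 7 of them higher in skin, 2 in bone and 1 not called (median log2 4.46, or 3.77 with bounds). Krt71, of the inner root sheath, was at 0.42, 0.21, 2.92 and 0.34 TPM in skin, so skin replicate 3 stood above the other 3 by several-fold, and it had 220 counts in skin and 2 in bone (ratio 88.8, 95% counting interval 24.3 to 738). Krt75, of the companion layer, had 12.7 TPM ± 4.56 in skin and 0.0575 ± 0.0419 in bone, and Foxn1, a transcription factor of follicle and epidermis, 3.62 ± 1.47 against 0.015 ± 0.0129. The exceptions were at low levels. Krt86 had 45 counts in bone and 1 in skin (ratio 55.7, 95% counting interval 9.51 to 2250), and Edar, a receptor of placode formation, 0.113 TPM ± 0.0457 in skin and 0.305 ± 0.0332 in bone. Without skin replicate 3, 4 genes of the list were higher in bone.

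Pigment cell genes were low in skin as well. Of 11 melanocyte genes 7 were measured, 6 higher in skin and 1 in bone (median log2 3.16). Dct, an enzyme of melanin synthesis, was at 7.26, 5.71, 4.83 and 2.58 TPM in skin and at most 0.15 in bone (log2 6.16, SE 0.31), while Tyr, the rate-limiting enzyme, averaged 0.185 TPM ± 0.0835 in skin. Tyrp1 had 516 counts in skin and 2 in bone (ratio 208, 95% counting interval 57.4 to 1724). Slc24a5, a cation exchanger of pigment granules, was the exception, at 0.35, 0.54, 0.38 and 0.29 TPM in skin and 4.1, 4.77, 5.37 and 4.81 in bone (log2 -3.59, SE 0.29, adjusted p 2.32e-06). Of 6 genes of myelinating Schwann cells 4 were higher in skin (median log2 1.42). Mbp was not called at 17.3 TPM ± 4.35 in skin and 13.2 ± 3.61 in bone (log2 -0.22, adjusted p 0.17); without replicate 1 in both tissues its adjusted p was 0.0084 towards bone. Mag, also not called, had an adjusted p of 0.0768, and of 0.047 under the same omission.

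Mast cell genes went in both directions. The connective tissue mast cell proteases Mcpt4 and Cma1 were higher in skin. Mcpt4 was at 25.1, 24.5, 7.74 and 14.2 TPM against 1.01, 0.33, 0.1 and 0.32 in bone (log2 5.35, SE 0.61). Cma1 was at 9.24 TPM ± 2.83 against 0.323 ± 0.167. Mrgprb2, the receptor for basic secretagogues, had 563 counts in skin and 3 in bone (ratio 151, 95% counting interval 51.6 to 737). Hdc and Ms4a2, which basophils also carry, went the other way. Hdc, which makes histamine, was at 0.92, 1.67, 0.59 and 0.78 TPM in skin and 4.35, 13.4, 22.2 and 23.7 in bone (log2 -4, adjusted p 4.42e-05), and Ms4a2, a chain of the IgE receptor, at 0.758 TPM ± 0.306 against 3.03 ± 1.21. Cpa3 was not called (log2 0.67, adjusted p 0.247), and was called towards skin without skin replicate 3 (adjusted p 0.0152). In all, 5 of 8 measured genes were higher in skin and 2 in bone.

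Fibroblast genes of the dermis did not separate the tissues as a list: 6 of 14 were higher in skin, 2 in bone and 6 were not called (median log2 0.83). Dpt (dermatopontin) was at 59.8, 33.2, 13.8 and 26.9 TPM in skin and 4.8, 1.13, 4.95 and 2.5 in bone (log2 3.32, SE 0.52, adjusted p 0.000262), and Crabp1 at 17.2, 8.83, 3.62 and 5.92 TPM against at most 0.32. Dcn (decorin) was at 282, 117, 31.8 and 71.8 TPM in skin and 141, 103, 146 and 111 in bone, with wide overlap and a log2 difference of -0.05. Lox, which cross-links collagen, had 2.95 TPM ± 1.2 in skin and 27.4 ± 4.1 in bone (log2 -3.19, SE 0.23). Skin replicate 3 was the lowest skin library for Dpt, Dcn, Lum, Pdgfra, Pi16 and Col3a1. The number called towards bone was 4 without skin replicate 1 and 1 without skin replicate 2 or without bone replicate 1. Pdgfra, at log2 -0.81 (adjusted p 0.0335), was lost without bone replicate 1 (0.107) or any 1 of skin replicates 2 to 4 (0.0502 to 0.0681). Lum (log2 -1.2, adjusted p 0.0636) passed without skin replicate 1 (0.0158) or 3 (0.04), and Pi16 (adjusted p 0.487) without skin replicate 1 (0.0407).

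Fat genes were present in both tissues and higher in skin in 11 of 12 cases (median log2 1.52). Cfd (adipsin) was at 427, 390, 343 and 241 TPM in skin and 42.8, 49.7, 91.5 and 72.7 in bone (log2 2.54, SE 0.17, adjusted p 4.67e-07). Lep (leptin) averaged 10.3 TPM ± 3.25 in skin and 0.713 ± 0.618 in bone, and Adig 11.2 ± 2.36 against 0.587 ± 0.266. Adipoq (adiponectin) overlapped, at 66.2, 56.8, 41.8 and 39.3 TPM in skin and 13.8, 32.1, 45.1 and 38.3 in bone (log2 0.77, adjusted p 0.0105), as did Lpl and Car3. Lpl had an adjusted p of 0.0227, and of 0.059 without skin replicate 2. Pparg, the master regulator of fat cells, was not called at 11.7 TPM ± 3.59 and 11.2 ± 2.13 (log2 0.41, adjusted p 0.0873), and passed without bone replicate 1 (0.0346).

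Matrix genes of bone were among the highest of that tissue. Of 16 osteoblast genes 14 were higher in bone, 1 in skin and 1 was not called (median log2 -4.32). Col1a1, a chain of type I collagen, was at 96.8, 63.9, 25 and 27.3 TPM in skin and 1530, 1289, 1607 and 1220 in bone (log2 -4.78, SE 0.47, adjusted p 8.67e-06), and Col1a2 at 38.8 TPM ± 25.6 against 755 ± 102. Bglap was at 529, 778, 1140 and 808 TPM in bone, with 17721 counts there and 3 in skin (ratio 7317, 95% counting interval 2503 to 35485); it shares most of its sequence with Bglap2, so the level of either copy is less certain than their sum. Ibsp had 15496 counts in bone and 0 in skin, at least 6398-fold higher. The osteoblast transcription factors differed in size: Sp7 was at 16.2, 10.6, 15.9 and 11.1 TPM in bone and at most 0.04 in skin (log2 -8.7), whereas Runx2 was at 2.76, 1.93, 2.26 and 1.51 TPM in skin and 22 ± 1.07 in bone (log2 -3.23). Postn (periostin) was the gene higher in skin, at 130, 104, 77 and 85.8 TPM against 38.8, 20.1, 37 and 29.6 (log2 1.74, SE 0.26).

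Osteocyte genes were near 0 in skin. Dmp1, a matrix protein of mineralising osteocytes, was at 13.9, 12.9, 19.2 and 12.4 TPM in bone and at most 0.06 in skin (log2 -8.94, SE 0.42), and Phex, an enzyme of phosphate control, at 14.9 TPM ± 3.52 against 0.035 ± 0.0265. Sost (sclerostin, an inhibitor of bone formation) had 1715 counts in bone and 1 in skin (ratio 2124, 95% counting interval 381 to 83959), and Mepe 947 and 0, at least 391-fold higher. Pdpn, which lymphatic vessels and keratinocytes also express, was higher in skin at 5.39 TPM ± 3.35 against 2.42 ± 0.505 (adjusted p 0.0166), and lost its call without replicate 1 in both tissues (0.0603). The other 4 of 5 measured genes were higher in bone.

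Of 15 osteoclast genes 12 were higher in bone and 3 were not called (median log2 -3.41). Acp5, the tartrate-resistant acid phosphatase, was at 44.6, 23.1, 23.5 and 21.4 TPM in skin and 238, 190, 334 and 230 in bone (log2 -3.08, SE 0.22, adjusted p 9.59e-07), and Ctsk, the collagen-degrading cathepsin, at 25.6, 15, 2.27 and 7.33 TPM against 140, 118, 156 and 109. Mmp9 was at 213 TPM ± 64.2 in bone and 2.91 ± 1.45 in skin; neutrophils carry it too. Calcr, the calcitonin receptor and the narrowest marker of the list, had 75 counts in bone and 0 in skin, at least 31-fold higher. The receptor Tnfrsf11a (RANK) did not separate the tissues at 3.12 TPM ± 0.524 in skin and 3.34 ± 0.575 in bone (log2 -0.32, adjusted p 0.108), although it was called towards bone without skin replicate 1 (0.0431). Nfatc1, the transcription factor downstream of it, was at 23.5 TPM ± 6.33 and 21.1 ± 3.99 (adjusted p 0.132).

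Cartilage genes were higher in bone in 15 of 16 cases (median log2 -6.51). Col2a1, the collagen of cartilage, was at 0.26, 0.01, 0.02 and 0.09 TPM in skin and 105, 46.1, 51.9 and 39.6 in bone (log2 -11.19, SE 0.64, adjusted p 1.9e-07), and Acan (aggrecan) at 10.1, 4.95, 5.83 and 3.9 TPM in bone. Both were highest in bone replicate 1, as was Matn3, which had 275 counts in bone and 0 in skin (at least 114-fold higher). Prg4 (lubricin), made by the surface of joints, was at 249, 180, 81 and 224 TPM in bone and at most 0.71 in skin, so joint surface transcripts were present in every bone library. Sox9, a regulator of cartilage that hair follicles use as well, ran the other way at 26.2, 15.7, 16.5 and 12 TPM in skin against 0.89 ± 0.123 in bone (log2 4.32, SE 0.22).

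The signals that hold blood stem cells in marrow were mostly higher in bone, 7 of 10 genes, with 1 higher in skin and 2 not called (median log2 -1.92). Cxcl12 was at 43.1, 30.3, 15.4 and 19.7 TPM in skin and 116, 314, 328 and 350 in bone (log2 -3.32, SE 0.3, adjusted p 4.84e-06), and Lepr, the marker of the stromal cells that make it, at 1.83 TPM ± 0.755 against 18.2 ± 5.87. Vcam1, an adhesion molecule of the niche, was at 0.445 TPM ± 0.285 in skin and 76.4 ± 42 in bone. Kitl (stem cell factor) overlapped, at 6.59, 6.13, 6.46 and 4.09 TPM in skin and 5.8, 11, 14.2 and 14.3 in bone (log2 -1.07). Foxc1 was the gene higher in skin, 6.73 TPM ± 1.8 against 3.01 ± 0.488.

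Blood cell genes were far higher in bone. All 26 erythroid genes were higher in bone (median log2 -9.87, or -9.72 with bounds). Hbb-bs was at 23.9, 20.8, 5.6 and 6.25 TPM in skin and 16144, 28835, 33581 and 34616 in bone (log2 -10.8, SE 0.64, adjusted p 2.37e-07). The alpha-globin copies Hba-a1 and Hba-a2 are nearly identical, so their separate levels of 13886 TPM ± 4613 and 44655 ± 15336 in bone depend on how reads were divided between them. Genes of red cell precursors rather than of the finished cell showed the same separation: Alas2 was at 320, 399, 461 and 464 TPM in bone and 2.34, 4.66, 5.11 and 3.62 in skin, Slc4a1, the anion exchanger of the red cell membrane, at 437 ± 53.2 against 0.0775 ± 0.0591, and the transcription factor Klf1 at 23.7, 30.9, 31.4 and 33.6 against at most 0.19. Fech, the last enzyme of heme synthesis and active in all cells, differed least of those named here, with 217 TPM ± 16.7 in bone and 20.7 ± 4.44 in skin (log2 -3.59). In tissue RNA, fewer cells of a type and less RNA per cell cannot be told apart.

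Neutrophil genes were higher in bone at every stage, 6 of 6 for the early azurophil granules (median log2 -9.75, -9.52 with bounds), 13 of 13 for the later granules (-10.39) and 7 of 7 for the mature cell (-6.96). Mpo (myeloperoxidase) was at 82.4, 279, 425 and 481 TPM in bone and at most 0.08 in skin (log2 -13.91, SE 0.73, adjusted p 1.04e-07), and Elane at 39, 169, 266 and 276 TPM against at most 0.18. Ltf (lactoferrin) had 78681 counts in bone and 0 in skin, at least 32488-fold higher. Ngp was at 720, 2417, 3989 and 3958 TPM in bone and at most 0.07 in skin. S100a8, a subunit of the protein calprotectin, was at 642, 4247, 6999 and 7124 TPM in bone and 18.1, 55.3, 12.5 and 20.6 in skin (log2 -7.3), and Cxcr2, a chemokine receptor of mature neutrophils, at 8.13, 20.2, 37.2 and 39.4 TPM against 3.58, 2.77, 2.38 and 0.93. Bone replicate 1 was the lowest bone library for each of these genes, and was still above every skin library. Eosinophil granule genes stood out among the largest differences towards bone. Epx was at 1.81, 17, 62.1 and 122 TPM in bone, and Prg2 at 4.42, 43, 199 and 279, both with 0 counts in skin (at least 3317-fold and 3226-fold higher), so they differed widely between bone libraries.

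B cell and megakaryocyte genes were also higher in bone. Of 13 measured B cell progenitor genes 12 were higher in bone (median log2 -7.45), with Rag1, of the recombinase that assembles antigen receptors, at 2.78, 6.29, 8.5 and 6.22 TPM in bone and at most 0.06 in skin (log2 -7.79, SE 0.37). Rag2 had 487 counts in bone and 0 in skin (at least 201-fold higher), Igll1, of the surrogate light chain, 1004 and 0 (at least 415-fold), and Dntt, which adds untemplated bases at the joints, 819 and 1 (ratio 1015, 95% counting interval 182 to 40120). Blnk, an adaptor, was the gene not called, at 15.4 TPM ± 6.83 in skin and 14.2 ± 5.96 in bone. All 8 mature B cell genes (median -5.38) and all 13 megakaryocyte genes (median -7.47) were higher in bone. Ms4a1 (CD20) was at 6.5, 12.5, 20.3 and 12.9 TPM in bone and 0.143 ± 0.0359 in skin. Ppbp, a platelet chemokine, was at 293, 430, 532 and 490 TPM in bone and 1.07 ± 0.22 in skin (log2 -8.55, SE 0.24).

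The list of blood stem and progenitor genes split. Of 13, 7 were higher in bone, 5 in skin and 1 was not called (median log2 -0.97). Myb was at 19.5, 34.9, 42.1 and 38.1 TPM in bone and 1.02 ± 0.315 in skin (log2 -4.88, SE 0.19), and Kit, which mast cells and pigment cells also carry, at 11.5 ± 2.27 against 2.87 ± 0.73. The 5 higher in skin were Cd34, Hlf, Procr, Hoxa9 and Ly6a, none of them confined to blood cells. Ly6a (Sca-1) was at 183, 89.7, 94.3 and 78.8 TPM in skin and 14.2, 15.3, 32.2 and 26.9 in bone (log2 2.46), and Cd34, also on vessels and hair follicle cells, at 25.9 ± 12.2 against 6.81 ± 1.98. Mecom, called towards bone at log2 -0.97 (adjusted p 0.0345), lost its call without any 1 of 6 libraries, at adjusted p from 0.0533 to 0.148; leaving out bone replicate 1 gave the highest.

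Macrophages, T cells and natural killer cells live in both tissues, and their genes differed less. Of 15 macrophage and monocyte genes 10 were higher in bone, 1 in skin and 4 were not called (median log2 -1.51). Lyz2 was at 166, 119, 45.5 and 141 TPM in skin and 329, 994, 1455 and 1421 in bone (log2 -2.99, SE 0.46), and Csf1r, the receptor for the macrophage growth factor, at 10.8 ± 6.19 against 25.3 ± 4.85 (log2 -1.05, adjusted p 0.0117). Spic, the factor of macrophages that clear red cells, was at 2.47, 8.05, 10.1 and 11.4 TPM in bone and 0.11 ± 0.129 in skin (log2 -6.28). The calls of 2 genes named here rested on single libraries. Adgre1 (F4/80, adjusted p 0.0392) was lost without any 1 of 5 libraries (0.0571 to 0.0962), and C1qa (0.0218) without skin replicate 2 (0.052) or bone replicate 4 (0.0593). Mrc1, not called (0.0995), passed towards bone without bone replicate 1 (0.0265).

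Of 16 measured T and natural killer cell genes 10 were higher in bone, 3 in skin and 3 were not called (median log2 -2.09). Cd4 and Cd8a were higher in bone, at 4.29 TPM ± 2.12 against 0.453 ± 0.343 and 1.54 ± 0.52 against 0.188 ± 0.0377, and so was Nkg7, a granule gene of killer cells that granulocytes share, at 6.8, 20.8, 32.5 and 32.3 TPM in bone and 6.23, 4.49, 2.74 and 4.11 in skin. Of the listed T cell receptor signalling chains, Cd3e and Cd3g were higher in skin, and Cd3d was not called towards skin. Cd3e was at 8.83, 7.52, 3.54 and 4.83 TPM in skin and 1.43, 3.1, 4.19 and 3.41 in bone (log2 1.15, adjusted p 0.0148, but 0.0629 without replicate 1 of both tissues), and Cd3g at 5.86 ± 2.73 against 2.05 ± 1.04 (log2 1.48, adjusted p 0.0043). Prf1 (perforin) was also higher in skin. Of 18 blood transcription factors 17 were higher in bone (median log2 -4.74), among them Gata1 at 30.9 TPM ± 5.32 against 0.075 ± 0.0436 and Spi1 (PU.1) at 61.7 ± 29.6 against 8.85 ± 4.36. Cebpa was the exception, at 99.4, 45, 46.4 and 35.9 TPM in skin and 6.73, 11.6, 13.9 and 14.3 in bone (log2 2.31, SE 0.25); keratinocytes, sebocytes and fat cells express it as well.

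Skeletal muscle genes were present in both tissues and varied widely between the libraries of a tissue. None of 18 measured genes was called by edgeR with all 8 libraries and its filter on low counts (median log2 -0.76). None had an unadjusted p under 0.05, and DESeq2 and limma voom called 0 as well. Without the filter 1 gene, Mb (myoglobin), was called towards bone (log2 -2.10, adjusted p 0.0204). Acta1, the actin of skeletal muscle, was at 98.8, 397, 219 and 0.58 TPM in skin and 217, 26.3, 287 and 449 in bone (log2 -0.39, SE 1.16, adjusted p 0.79), and Myh4, a fast myosin, at 0.78, 77.6, 8.41 and 0.07 TPM in skin and 57.1, 5.77, 65 and 93.7 in bone. The sum over the list ran from 7.75 TPM, in skin replicate 4, to 2268 in skin and from 179, in bone replicate 2, to 2615 in bone. Without skin replicate 2, 4 genes were called towards bone, Myh4 among them (adjusted p 0.0323), and without bone replicate 2, 1 was, Mb (0.0433).

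Endothelial genes were higher in bone in 12 of 13 cases (median log2 -1.64). Vwf, which megakaryocytes make too, was at 4.24, 2.04, 2.89 and 2.65 TPM in skin and 18.9, 24.8, 21.9 and 25.6 in bone (log2 -3.25, SE 0.22, adjusted p 5.75e-07). Cdh5 (VE-cadherin), with a narrower expression, was at 6.43, 3.82, 1.12 and 1.47 TPM in skin and 6.7, 9.8, 13.7 and 13.5 in bone (log2 -1.77, SE 0.39, adjusted p 0.00269). Tek was the gene not called (log2 -0.57, adjusted p 0.0708), and passed without skin replicate 1 (0.03).

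Collagens went in both directions. Of 41 measured, 12 (29.3%) were higher in skin, 18 (43.9%) in bone and 11 were not called, against 30.9% and 30.3% over all genes. The median log2 difference was -0.06, and 0.26 without bone replicate 1. The fibrillar and cartilage collagens Col1a1, Col1a2 and Col2a1, given above, were higher in bone. Col7a1, of the anchoring fibrils under the epidermis, was at 3.59, 3.09, 5.89 and 3.38 TPM in skin and 1, 0.03, 0.4 and 0.22 in bone (log2 5.57, SE 0.26), and Col17a1, of the hemidesmosome, had the largest difference towards skin at log2 10.12. Col3a1, which accompanies type I collagen in soft tissue, was at 250, 178, 63.4 and 113 TPM in skin and 87.8, 34.8, 89.3 and 57.3 in bone (log2 1.05, adjusted p 0.0538), and passed towards skin without bone replicate 1 (0.00264) or skin replicate 3 (0.0204).

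Some genes used as references for equal loading differed between the tissues, fewer by share than over all genes. Of 15, 4 (26.7%) were higher in skin, 3 (20%) in bone and 8 were not called (median log2 0.06). Over all genes the shares were 30.9% and 30.3%. The balance of the list turned with the scaling: library totals gave 3 and 4, and omission of replicate 1 in both tissues 4 and 7. Tfrc, the transferrin receptor that red cell precursors carry in quantity, was at 19.9, 26.1, 20.5 and 16.5 TPM in skin and 145, 131, 131 and 107 in bone (log2 -2.47, SE 0.22). Ywhaz was higher in skin at 156 TPM ± 69.8 against 83 ± 28.5 (log2 1.04, adjusted p 0.00242). Actb was at 2991, 2018, 1863 and 1439 TPM in skin and 2187, 3651, 4513 and 4173 in bone (log2 -0.74, adjusted p 0.0677), and it passed towards bone without skin replicate 1 (0.013) or bone replicate 1 (0.0108). Gapdh (log2 -0.34, adjusted p 0.38) and Tbp (log2 -0.1, adjusted p 0.623) were not called. Ppia (log2 0.59, adjusted p 0.0331) lost its call without skin replicate 1 (0.0693) or bone replicate 2 (0.0592).

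HOX genes record the position of a tissue along the body and limb axes, with low numbers towards the head and trunk and high numbers towards the tail and the ends of limbs. Of 39 genes 31 were measured, and 24 were higher in skin, 2 in bone and 5 were not called (median log2 1.75). Hoxa7 was at 30.8, 13.8, 18.5 and 13.2 TPM in skin and 1.28, 1.86, 1.36 and 2.92 in bone (log2 3.53, SE 0.27, adjusted p 1.45e-06), and Hoxc8 at 5.61 ± 1.13 against 0.673 ± 0.413. Hoxc13, which the hair follicle uses apart from position, had the largest difference at log2 6.28, with 2.99, 1.77, 2.55 and 2.11 TPM in skin and at most 0.06 in bone. Both genes higher in bone were posterior members of the A cluster. Hoxa11 was at 0.29, 0.05, 0 and 0.06 TPM in skin and 0.52, 0.63, 0.82 and 0.8 in bone (log2 -2.83, SE 0.65, adjusted p 0.00335). Hoxa13 had 119 counts in bone and 2 in skin (ratio 73.7, 95% counting interval 20 to 616). The 5 not called were Hoxa10, Hoxb4, Hoxc9, Hoxc10 and Hoxc11. Bone replicate 1 had a mean log2 CPM over the HOX list of 0.99 against 0.27 to 0.38 in the other bone libraries, and Hoxc9 passed towards skin without it (adjusted p 0.00266). Hoxd13 had 8 counts in bone and 0 in skin, and Hoxb13 had 0 in either. The calls of Hoxa2, Hoxa4 and Hoxd9 (adjusted p 0.0257 to 0.0297) were each lost without any 1 of 4 libraries (0.0528 to 0.0931).

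Of 9 measured transcription factors that specify limbs, 2 (22.2%) were higher in skin, 3 (33.3%) in bone and 4 were not called (median log2 0.40). Shares over all genes were 30.9% and 30.3%. With limma voom the counts turned to 4 higher in skin and 3 in bone. Pitx1 and Tbx4, which mark the hindlimb, were higher in bone at low levels, with Pitx1 at 0.02, 0.04, 0.06 and 0.09 TPM in skin and 0.71, 0.46, 0.57 and 0.36 in bone (log2 -2.98, SE 0.49, adjusted p 0.00039) and Tbx4 at 0.025 ± 0.0129 against 0.203 ± 0.0419 (log2 -2.8). Tbx5, which marks the forelimb, was higher in skin at 0.49, 0.32, 0.21 and 0.67 TPM against 0.07, 0.11, 0 and 0 (log2 3.73, SE 0.78, adjusted p 0.00193). Shox2, a gene of the upper limb segment, was higher in bone at 5.02 TPM ± 0.541 against 1.58 ± 0.191 (log2 -1.56). Meis1 (adjusted p 0.0682) and Lmx1b (0.0692) passed towards skin without bone replicate 1 (0.016 and 0.0235), which gave 4 genes higher in skin, and Meis1 also without skin replicate 1 (0.0178). Bone replicate 1 had a mean log2 CPM over the limb list of 1.96 against 0.89 to 1.06 in the other bone libraries.

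**Figure D3:**
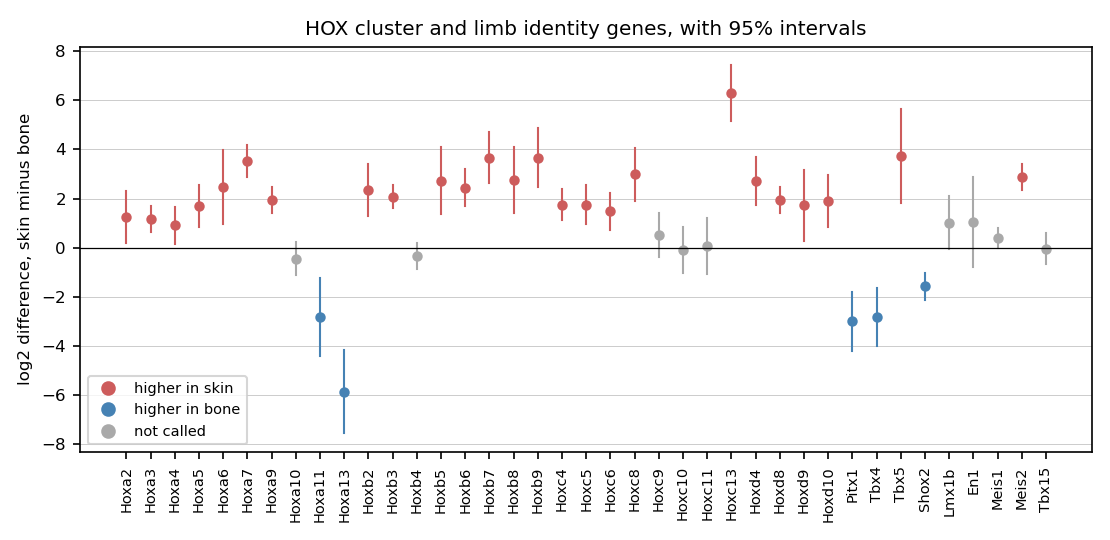
Tested log2 difference, skin minus bone, of HOX cluster and limb identity genes, with approximate 95% intervals from the SE and a t quantile. Red was called higher in skin, blue higher in bone and grey not called. Hoxa11, Hoxa13, Pitx1, Tbx4 and Shox2 lie below 0 and are the 5 genes called towards bone.

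The p53 gene itself did not separate the untreated tissues. Trp53 was at 47.3, 23.9, 20.9 and 17 TPM in skin and 14.6, 28.8, 35.5 and 33.8 in bone (log2 -0.02, SE 0.22, adjusted p 0.95). Skin replicate 1 was the highest of the 8 and bone replicate 1 the lowest, and with both left out the log2 difference was -0.40 and the adjusted p 0.00308. Mdm2, the ubiquitin ligase that removes p53 and is itself a target, was at 21, 22.9, 24.8 and 18.5 TPM in skin and 24.1, 30.7, 31.5 and 30.8 in bone (log2 -0.18, adjusted p 0.152). The relatives of p53 were the genes higher in skin, Trp63 as given above and Trp73 at 2.65 TPM ± 0.944 against 0.0375 ± 0.0479 (log2 6.34). Chek2, a kinase that activates p53, was at 1.58, 1.97, 1.94 and 1.58 TPM in skin and 9.01, 8.26, 9.19 and 8.59 in bone (log2 -2.4, SE 0.2, adjusted p 2.34e-06). Atm, the sensor kinase, was at 4.62 TPM ± 0.634 and 4.81 ± 0.879 (log2 -0.1, adjusted p 0.44). Of 15 genes of this core, 2 (13.3%) were higher in skin, 5 (33.3%) in bone and 8 were not called (median log2 -0.30). The share towards bone was near the 30.3% over all genes, and that towards skin was below the 30.9%. Without replicate 1 of both tissues 9 were higher in bone. Usp7 (log2 -0.47, adjusted p 0.0211) was lost without any 1 of skin replicates 2 to 4 or bone replicate 1 (0.0527 to 0.0739), while Ppm1d (0.0541) and Mdm4 (0.0526) passed without skin replicate 1 (0.0158) and skin replicate 4 (0.0427), and Ppm1d also without bone replicate 3 (0.0489).

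Targets of p53 differed in both directions before irradiation, as did genes at large, with 30.9% higher in skin and 30.3% in bone. Of 12 arrest targets 7 (58.3%) were higher in skin, 3 (25%) in bone and 2 were not called (median log2 1.66). Cdkn1a (p21), the inhibitor that stops the cycle after damage, was at 121, 50.5, 47.5 and 38.2 TPM in skin and 4.91, 5.08, 7.51 and 5.49 in bone, 11.4-fold higher in skin (log2 3.51, SE 0.28, adjusted p 1.73e-06). Sfn (14-3-3 sigma), which keratinocytes express at rest, was at 441, 180, 197 and 127 TPM against 1.47, 3.06, 3.35 and 2.96 (log2 6.47). Zmat3 was at 8.79 TPM ± 1.97 in skin and 1.41 ± 0.181 in bone (log2 2.7, SE 0.15). Gadd45a ran the other way, at 6.66, 6.31, 4.58 and 3.54 TPM in skin and 28.8, 33, 39.9 and 38 in bone (log2 -2.61, SE 0.15, adjusted p 1.69e-07), as did Btg2 at 14 ± 6.3 against 37.1 ± 7.76 (log2 -1.36). Ccng1 was not called at 17.2 TPM ± 5.21 and 18.9 ± 4.67 (adjusted p 0.812). The panel of radiation-response genes by library shows the 2 directions side by side.

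**Figure D4:**
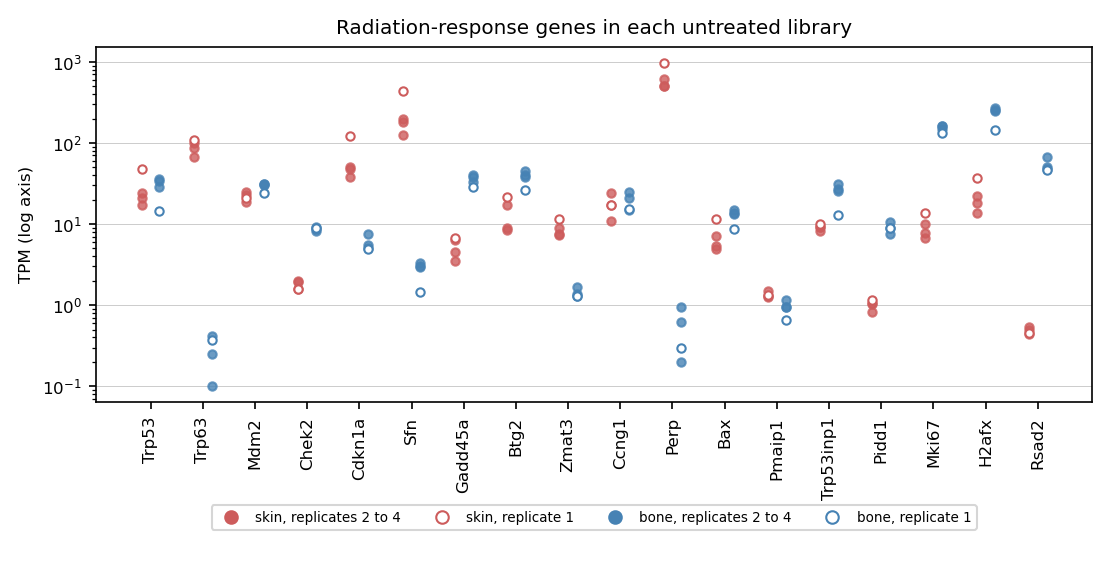
TPM (log axis) of 18 radiation-response genes in each untreated library; red is skin, blue is bone, and open circles are replicate 1. Trp53, Mdm2 and Ccng1 have similar levels in both tissues, Trp63, Cdkn1a, Sfn, Zmat3 and Perp lie higher in skin, and Chek2, Gadd45a, Pidd1, Mki67, H2afx and Rsad2 lie higher in bone.

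Among 12 death targets 6 (50%) were higher in skin, 4 (33.3%) in bone and 2 were not called (median log2 0.40). Perp, a desmosome protein as well as a p53 target, was at 963, 506, 607 and 504 TPM in skin and 0.3, 0.2, 0.62 and 0.94 in bone (log2 10.36, SE 0.45, adjusted p 3.46e-08). Bax, which opens the mitochondrial membrane, was at 11.4, 7.09, 5.3 and 4.99 TPM in skin and 8.78, 13.2, 15 and 13.7 in bone, with overlap (log2 -0.84, SE 0.2, adjusted p 0.00416). Pidd1 was higher in bone at 9.02 TPM ± 1.27 against 1.02 ± 0.143 (log2 -2.94), and Trp53inp1 at 24.2 ± 7.97 against 9.22 ± 0.73 (log2 -1.28). Fas, the death receptor, was at 2.54 TPM ± 0.68 and 2.52 ± 0.659 (adjusted p 0.7), and Bbc3 (Puma) at 2.54 ± 1.44 and 2.64 ± 0.688 (adjusted p 0.511, but 0.0176 towards bone without skin replicate 1). Pmaip1 (Noxa), higher in skin at adjusted p 0.0177, was lost without skin replicate 4 (0.0509). Of 15 targets in metabolism and repair, 6 (40%) were higher in skin and 3 (20%) in bone (median log2 0.11), against 30.9% and 30.3% over all genes. Pank1, of coenzyme A synthesis, was at 14.7, 9.75, 10.8 and 8.35 TPM in skin and 0.88, 0.84, 1.93 and 1.94 in bone (log2 2.7, SE 0.13). The 3 higher in bone were Polh (log2 -0.66, adjusted p 0.000613), Xpc and Rrm2b. Xpc (adjusted p 0.038) and Rrm2b (0.0414) lost their calls without most single libraries (0.071 to 0.11 and 0.0661 to 0.13), which left 1 gene towards bone without any 1 of skin replicates 2 to 4 or bone replicates 3 and 4, while omission of replicate 1 in both tissues gave 5 in each direction. Fuca1 (0.0334, higher in skin) was lost without skin replicate 1 (0.0663) or bone replicates 2 or 3 (0.0646 and 0.0626).

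**Figure D5:**
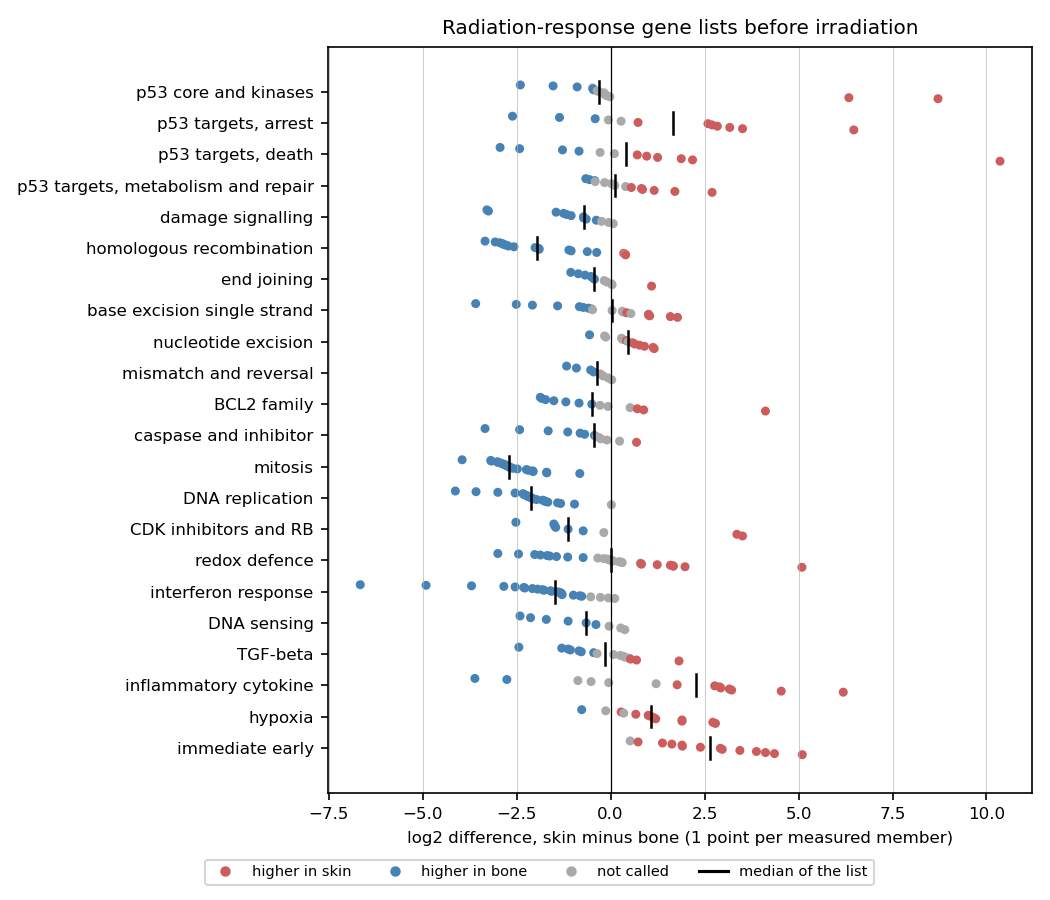
Tested log2 difference, skin minus bone, of each measured member of the radiation-response lists; red was called higher in skin, blue higher in bone and grey not called, and a bar marks the median of each list. All mitosis genes lie left of 0, homologous recombination and interferon genes lie mostly left, immediate early genes lie right, and the p53 target lists reach to both sides.

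Genes that sense DNA damage were higher in bone or not called. Of 13, 10 were higher in bone and 3 not called (median log2 -0.72). H2afx, the histone whose phosphorylation marks breaks, was at 36.6, 22.4, 18.3 and 13.7 TPM in skin and 146, 248, 254 and 271 in bone (log2 -3.29, SE 0.22, adjusted p 5.15e-07), and Clspn, an adaptor of the replication checkpoint, at 2.16, 0.5, 0.95 and 0.49 TPM against 8.71, 10.6, 12.4 and 10.1 (log2 -3.25). Trp53bp1, which binds at breaks, was at 6.75 TPM ± 1.06 and 7.44 ± 1.28 (adjusted p 0.74), and Atrip at 4.59 ± 0.993 and 5.09 ± 1.2 (adjusted p 0.67). Homologous recombination, the repair that copies a sister chromatid, had 15 of 18 genes higher in bone, 2 higher in skin and 1 not called (median log2 -1.96). Brca1 was at 1.26, 0.71, 1.2 and 0.65 TPM in skin and 8.83, 9.38, 10.5 and 9.52 in bone, 10.1-fold higher in bone (log2 -3.34, SE 0.18, adjusted p 1.24e-07). Brca2, which acts with Brca1 in this repair, was at 2.79 TPM ± 1.05 against 12.2 ± 1.05 (log2 -2.57). The subunits of the complex that first binds a break differed little, with Rad50 at log2 -0.62 (adjusted p 0.00506), Mre11a at -0.37 (0.0149, and 0.0627 without bone replicate 1) and Nbn at 0.35 towards skin (0.0353). Nbn and Rbbp8, the 2 genes higher in skin, both lost their calls without bone replicate 3 (0.0779 and 0.0759) or bone replicate 4 (0.0719 and 0.0743), Nbn also without skin replicate 1 (0.0524) and Rbbp8 without skin replicate 4 (0.0601).

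End joining, which rejoins breaks at any stage of the cycle, was close to even in size. Of 11 genes 6 were higher in bone, 1 in skin and 4 not called (median log2 -0.43), and the 6 became 1 without skin replicate 2 or skin replicate 4, 2 without bone replicate 2 and 3 without skin replicate 1, bone replicate 1 or bone replicate 4. The 2 subunits of the Ku complex, which bind the same ends, went opposite ways. Xrcc5 (Ku80) was at 10.8, 6.93, 7.94 and 4.94 TPM in skin and 2.9, 3.62, 4.45 and 3.85 in bone (log2 1.09, SE 0.14, adjusted p 6.96e-05), and Xrcc6 (Ku70) at 7.88, 6.54, 7.66 and 5.25 TPM in skin and 11.7, 17.7, 19 and 22.1 in bone (log2 -1.06, SE 0.19, adjusted p 0.000709). Prkdc, the kinase that Ku recruits, was at 2.7 TPM ± 0.64 and 3.69 ± 0.268 (log2 -0.43, adjusted p 0.0381), and was lost without any 1 of 5 libraries (0.0592 to 0.213, the highest without bone replicate 1). Lig4 (0.0285) and Rif1 (0.0302) were likewise lost without single libraries, among them skin replicate 2 (0.0877 and 0.0768).

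Repair of single bases and single strands divided by gene. Of 19, 6 (31.6%) were higher in skin, 8 (42.1%) in bone and 5 not called (median log2 0.04, with a sign that changed under several scalings). Over all genes the shares were 30.9% and 30.3%. Polb, the repair polymerase, was at 39.1, 32.2, 34.2 and 26.9 TPM in skin and 8.08, 8.17, 11 and 10.1 in bone (log2 1.78, SE 0.12, adjusted p 6.46e-07), and Lig3 at 11.5 ± 3.24 against 6.48 ± 1.29 (log2 1.04). Parp1, which senses nicks, was at 6.93, 5.16, 4.76 and 3.69 TPM in skin and 8.5, 13.7, 16 and 15 in bone (log2 -1.41, SE 0.2). Neil3, a glycosylase of dividing cells, was at 1.46 TPM ± 0.0727 in skin and 19.5 ± 1.73 in bone (log2 -3.59). Xrcc1 (log2 -0.51, adjusted p 0.0256) was lost without any 1 of skin replicates 2 to 4 or bone replicates 3 and 4 (0.0566 to 0.0797). Nucleotide excision repair, which removes bulky damage such as that of sunlight, had 7 of 13 genes higher in skin, 1 in bone and 5 not called (median log2 0.47). Ercc5 was at 8.38, 8.36, 10.4 and 7.34 TPM in skin and 3.89, 4.06, 4.05 and 4.18 in bone (log2 1.16, SE 0.14, adjusted p 5.36e-05), and Ercc1 at 10.2 ± 2.95 against 8.73 ± 2.6 (log2 0.77). The gene higher in bone was Xpc. Of 8 genes of mismatch repair and direct reversal, 4 were higher in bone and 4 not called (median log2 -0.36), with Pms2 at 3.54 TPM ± 1.02 in skin and 9.05 ± 1.57 in bone (log2 -1.17).

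Both sides of the cell death machinery were more often higher in bone. In the BCL2 family 7 of 13 genes were higher in bone, 3 in skin and 3 not called (median log2 -0.50). The survival gene Bcl2l1 (Bcl-xL), on which red cell precursors depend, was at 16.8, 9.32, 10.9 and 7.45 TPM in skin and 31.3, 39.5, 50 and 48.2 in bone (log2 -1.83, SE 0.14, adjusted p 1.7e-06), and the killer gene Bcl2l11 (Bim) at 2.9 ± 0.0988 against 9.39 ± 1.85 (log2 -1.73). Bak1, the partner of Bax, was at 4.37 TPM ± 2.54 and 12.7 ± 6.06 (log2 -1.51, with overlap). Bok was the family member with the largest difference, at 46.8, 32.4, 34.9 and 24.1 TPM in skin and 1.9, 2.03, 2.29 and 3.48 in bone (log2 4.12, SE 0.16). Mcl1 was not called at 24.9 TPM ± 4.25 and 27.7 ± 6.02 (adjusted p 0.638). Of 13 caspases, cofactors and inhibitors 7 were higher in bone, 1 in skin and 5 not called (median log2 -0.43). Apaf1, the scaffold of the apoptosome, was at 2.8, 3.02, 1.61 and 2.18 TPM in skin and 8.25, 10.6, 13.5 and 12.7 in bone (log2 -2.42, SE 0.16). Cycs (cytochrome c) was the gene higher in skin (log2 0.69, adjusted p 0.0023), and Casp8 (log2 -0.3, adjusted p 0.114) passed towards bone without skin replicate 1 (0.0131). The count higher in skin was 2 without skin replicate 3 or bone replicate 1.

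Genes of dividing cells were higher in bone. All 22 mitosis genes (median log2 -2.70) and 21 of 22 replication genes (median -2.10) were higher in bone. Mki67 was at 13.7, 7.68, 9.92 and 6.7 TPM in skin and 133, 160, 161 and 149 in bone, 15.4-fold higher in bone (log2 -3.95, SE 0.21, adjusted p 1.22e-07). Cdc6, which loads the replication helicase, was at 1.27, 0.93, 1.45 and 0.49 TPM in skin and 15.4, 20.1, 21.4 and 19.9 in bone (log2 -4.13, SE 0.22), and Rrm2, of the enzyme that makes deoxynucleotides, at 9.18 ± 3.05 against 73.4 ± 11 (log2 -3). Ttk had the smallest difference of the mitosis list (log2 -0.82, adjusted p 0.00237), and Gins2 was the replication gene not called, at 6.7 TPM ± 2.86 and 7.08 ± 1.79. Of 9 inhibitors of cyclin-dependent kinases and RB family genes 6 were higher in bone, 2 in skin and 1 not called (median log2 -1.13). Cdkn2d was at 4.21, 2.33, 2.58 and 1.92 TPM in skin and 9.47, 19.9, 22.6 and 23.6 in bone (log2 -2.52), and Rb1 at 13.3 ± 1.1 against 40 ± 3.36 (log2 -1.51, SE 0.15). The 2 higher in skin were Cdkn1a, given above, and Cdkn2b, at 3.07 TPM ± 1.33 against 0.298 ± 0.0403. The bone libraries in which these lists were high also carried the blood genes, with the sum of the 26 erythroid genes at 53347 to 119617 TPM against 45.6 to 124 in skin and that of the later neutrophil granule genes at 2108 to 16651 against 26 to 100. The part of the blood cells in the repair, death, cell cycle and interferon results was not tested.

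The defence against oxidants had no common direction. Of 28 genes 8 (28.6%) were higher in skin, 9 (32.1%) in bone and 11 not called (median log2 0.01, with a sign that changed under several scalings). These shares are near the 30.9% and 30.3% over all genes. Nfe2l2 (NRF2), its main transcription factor, was at 34.2, 26.8, 23.7 and 19.9 TPM in skin and 18.3, 30.3, 39.6 and 38.6 in bone (log2 -0.18, adjusted p 0.31), and with replicate 1 of both tissues left out its adjusted p was 0.00549 towards bone. The peroxidases of red cells were higher in bone, with Gpx1 at 268, 220, 197 and 175 TPM in skin and 608, 900, 1002 and 1020 in bone (log2 -1.87, SE 0.14, adjusted p 1.1e-06) and Prdx2 at 57.4 ± 17.4 against 274 ± 37.8 (log2 -2.02). Gsr, glutathione reductase, was at 10.4 TPM ± 3.85 and 99.2 ± 46.7 (log2 -3). Prdx1 was higher in skin at 439, 383, 399 and 283 TPM against 62.8, 117, 138 and 136 (log2 1.66, SE 0.16), and so was Gpx2, an epithelial form, at 3.64 ± 1.42 against 0.04 ± 0.0374 (log2 5.09). Cat was at 48.5 TPM ± 18 and 54.8 ± 15 (adjusted p 0.785).

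Interferon-induced genes, which cells also raise after DNA reaches the cytosol, were higher in bone in 22 of 26 cases, with 4 not called (median log2 -1.49). Rsad2 (viperin) was at 0.45, 0.49, 0.44 and 0.54 TPM in skin and 46.5, 47.3, 66.3 and 49.8 in bone, 101-fold higher in bone (log2 -6.66, SE 0.22, adjusted p 9.85e-09). Isg15 was at 2.43, 1.62, 2.02 and 1.65 TPM in skin and 13.8, 23.8, 39.1 and 31.8 in bone (log2 -3.7, SE 0.23). Ifit1 was at 0.815 ± 0.271 against 4.35 ± 2.07 (log2 -2.28), and Irf7, the factor that amplifies the response, at 5.53 ± 2.09 against 17.7 ± 7.79 (log2 -1.6). The 4 not called were Ifngr1, Usp18, Ifih1 and Gbp2, the last at 4.32 TPM ± 1.26 and 4.31 ± 1.77. Usp18 (adjusted p 0.0612) passed towards bone without skin replicate 1, skin replicate 4 or bone replicate 2 (0.0315 to 0.048), and Ifih1 (0.0687) without skin replicate 1 (0.037). Usp18 (adjusted p 0.0612) passed towards bone without skin replicate 1, skin replicate 4 or bone replicate 2 (0.0315 to 0.048), and Ifih1 (0.0687) without skin replicate 1 (0.037). Usp18 (adjusted p 0.0612) passed towards bone without skin replicate 1, skin replicate 4 or bone replicate 2 (0.0315 to 0.048), and Ifih1 (0.0687) without skin replicate 1 (0.037). Usp18 (adjusted p 0.0612) passed towards bone without skin replicate 1, skin replicate 4 or bone replicate 2 (0.0315 to 0.048), and Ifih1 (0.0687) without skin replicate 1 (0.037). Of 9 genes of cytosolic DNA sensing 6 were higher in bone and 3 not called (median log2 -0.65). The sensor Cgas was at 1.32 TPM ± 0.286 and 1.47 ± 0.492 (log2 -0.04, adjusted p 0.87), its adaptor Tmem173 (STING) at 5.41, 7.17, 2.78 and 3.84 TPM in skin and 9.98, 16.2, 22.2 and 18.1 in bone (log2 -1.71, SE 0.32, adjusted p 0.000863), and Aim2 at 2.81 ± 0.486 against 12.3 ± 0.942 (log2 -2.41). Tbk1 (log2 -0.39, adjusted p 0.0119) was lost without bone replicate 1 (0.0728), and Irf3 (log2 0.27, adjusted p 0.0608) passed towards skin without skin replicate 2 (0.0312) or bone replicate 1 (0.0227).

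The TGF-beta pathway, a driver of fibrosis after radiation, had no common direction. Of 16 genes 7 (43.8%) were higher in bone, 3 (18.8%) in skin and 6 not called (median log2 -0.14, and 0.09 without bone replicate 1). Over all genes the shares were 30.3% and 30.9%. The ligand Tgfb1 was at 23.7, 18.8, 16.2 and 13.3 TPM in skin and 52.1, 83, 111 and 113 in bone (log2 -2.44, SE 0.19, adjusted p 1.57e-06). Tgfb2 was at 2.84 TPM ± 0.856 and 2.22 ± 0.429 (adjusted p 0.215, and 0.0434 towards skin without bone replicate 1). The receptor Tgfbr2 (log2 0.5, adjusted p 0.0592) was not called, and passed without skin replicate 3 (0.013). Among the proteins that store the ligand in the matrix, Ltbp4 was higher in skin at 41.9, 20.9, 18.5 and 16 TPM against 7.53, 4.34, 7.88 and 7.71 (log2 1.82, SE 0.28) and Ltbp1 in bone at 8.62 ± 1.22 against 3.96 ± 1.55 (log2 -1.13).

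Inflammatory cytokine genes went more often towards skin. Of 14 measured of 19, 8 were higher in skin, 2 in bone and 4 not called (median log2 2.27). Il33 was at 25.2, 13, 16.4 and 10.4 TPM in skin and 0.55, 0.09, 0.35 and 0.48 in bone (log2 6.19, SE 0.32, adjusted p 1.02e-07), Il1a at 15.3 ± 4.46 against 2.13 ± 0.555 (log2 2.9), and Il1rn, the antagonist of the interleukin 1 receptor, at 63.5 ± 28.4 against 10.1 ± 5.28 (log2 2.77). Ccl5 was higher in bone at 0.99, 4.24, 4.61 and 5.12 TPM against 0.59, 0.37, 0.07 and 0.17 (log2 -3.61, SE 0.52). Il1b was at 2.07, 4.44, 1.6 and 1.51 TPM in skin and 1.92, 5.25, 7.15 and 5.16 in bone (log2 -0.87, adjusted p 0.0838), and Tnf at 3.29 ± 1.39 and 5.04 ± 2.16 (log2 -0.52, adjusted p 0.17); both passed towards bone without bone replicate 1 (0.0329 and 0.0473), and then 5 genes were higher in bone. Il1b also passed without skin replicate 2 (0.0113). Cxcl2 (log2 1.21, adjusted p 0.0862) passed towards skin without bone replicate 1 (0.0324) or without skin replicate 1 (0.0423). Il6 was among the 5 genes too low to be tested.

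Hypoxia genes were higher in skin in 10 of 13 cases, with 1 higher in bone and 2 not called (median log2 1.08). Hif1a, a transcription factor of the response to low oxygen, was at 35.2, 32, 32 and 22.8 TPM in skin and 10.2, 13.4, 19.1 and 17.1 in bone (log2 1.15, SE 0.12, adjusted p 1.21e-05). Its relative Epas1 was at 15.2, 9.45, 8.73 and 7.5 against 14, 15.8, 22.4 and 19.5 (log2 -0.77, SE 0.17, adjusted p 0.00247). The glucose transporter Slc2a1, a HIF target, was at 20.6 TPM ± 9.17 against 3.28 ± 1.31 (log2 2.72), and Egln3, a HIF hydroxylase, at 13.4 ± 5.55 against 2.04 ± 0.837 (log2 2.79). Vegfa was not called at 15.2 TPM ± 5.24 and 14.1 ± 3.74 (adjusted p 0.623). Ldha (log2 0.67, adjusted p 0.0165) was lost without bone replicate 2 (0.0532).

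Immediate early genes, which cells raise within minutes of many kinds of stimulus, were higher in skin in 13 of 14 cases (median log2 2.65). Egr1 was at 160, 90.8, 25.4 and 26.7 TPM in skin and 4.67, 3.96, 5.76 and 5.02 in bone (log2 3.88, SE 0.52, adjusted p 8.65e-05), and Fos at 46.4, 44.2, 9.53 and 12.3 TPM against 4.49, 3.28, 5.56 and 3.91 (log2 2.92, SE 0.48). Skin replicates 1 and 2 were above replicates 3 and 4 for both, and each skin library was above every bone library. Egr2 was at 28 TPM ± 15.4 against 0.737 ± 0.204 (log2 5.1), Atf3 at 6.01 ± 2.88 against 0.823 ± 0.314 (log2 2.97) and Junb at 53.4 ± 30.7 against 10.6 ± 3.01 (log2 2.39). Myc had the smallest difference of those called, with overlap at 35.5, 21.7, 25.6 and 17.9 TPM in skin and 9.48, 15.9, 17.3 and 22.2 in bone (log2 0.73, adjusted p 0.00286). Zfp36 was the gene not called (log2 0.52, adjusted p 0.104), and passed without skin replicate 3 (0.0491).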

How the data were processed

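RNA of untreated mouse skin and bone was measured by RNA-seq, 4 libraries a tissue, labelled as polyA RNA. Per the submitters' processing notes, the build was GRCm38 and the tools were RSEM, STAR, cutadapt and FastQC, with no version or option stated. Per the file headers, the authors deposited RSEM gene results for 1 library a file, with expected counts (reads shared between genes are divided by estimate, and nothing is normalized), TPM (per transcript length, summing to the same total in each library) and FPKM. The deposited FPKM values were not used. The division of reads between near-identical genes (globins, histones, Bglap copies) is RSEM's estimate, and the strand setting is not stated, so antisense pairs cannot be separated. Of 55471 gene identifiers 55230 matched GENCODE M21, and 845 of 847 listed genes were found.

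Expected counts were rounded and fitted with edgeR 4.0.16 in R 4.3.3 (filterByExpr, TMM scaling, quasi-likelihood F test, two-sided, Benjamini-Hochberg adjusted p under 0.05 over all tested genes), with the tissue as the only term. The log2 CPM values carry a prior count of 2, while the tested log2 differences carry the default prior of edgeR. On simulated counts for this comparison (18736 genes), 69% of 100 genes changed 2-fold and 100% of 100 changed 4-fold were called, against 0.0164% of unchanged genes. The simulation gave every gene the same spread between libraries, and the few changed genes were drawn from those with many counts. The real libraries differ on each of these points, so the rates need not hold for them. Where a tissue had 0 counts, the fold is a bound from 3 counts over the 4 libraries. With 1 to 3 counts, the ratio has an exact (Clopper-Pearson) 95% interval. Both cover counting error only. No 2 libraries agreed within sampling noise (chi-square per degree of freedom 9.71 to 210). Promoter windows came from RefSeq on GRCm38.p6.

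The 56 gene lists were written from general knowledge, and they and the comparison were chosen with earlier results of these data known. Named genes are the first 6 of each list, the members with the highest level and the largest difference, the HOX and limb lists, the 10 genes of highest level in each tissue and the 10 of largest difference (at least 50 TPM, no overlap, without mitochondrial, Gm, Rik, pseudogene and receptor segment models). From these, the text gives a selection, and some genes are not reported here. Members that went against their list, or whose call rested on single libraries, were named after their values were seen. Alternatives were DESeq2 1.42.0, limma 3.58.1 (voom, and log2 TPM with a pseudocount of 1 or 0.1), RLE and total scaling, other filters, a replicate block, all 24 libraries and the omission of libraries. Fits of protein-coding genes alone, and TPM rescaled to them, were chosen after seeing the data.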

Additional observations from a re-analysis of the deposited data

Results flagged for a closer look

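In each tissue the highest and the lowest of the 4 libraries were compared with the rest, for the TPM of every gene named here, the mean log2 CPM of every list and the shares of gene classes. A library was marked where its gap to the nearest other library took a larger part of the range of the 4 than Dixon's 95% critical value. Of 710 groups, 64 were marked, where chance marks about 1 in 20, so single marks carry little weight. Values are given as the marked library against the range of the other 3. Nuclear protein-coding genes held a high share of all TPM in skin replicate 1 (39.3%) and a low one in bone replicate 1 (23.9%). Marks on TPM in these libraries include this difference in scale, and its part in single marks was not tested.

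Skin replicate 1 was the marked library most often. Its share of counts on rRNA-like gene models stood apart, 9.28 against 0.0408 to 0.0696 percent. Among its keratinocyte genes, the marked TPM were those of Krt1 (1419 against 359 to 434), Krt10 (3251 against 934 to 1119), Lor (536 against 158 to 191) and Krtdap (4248 against 1935 to 2170). The others of the epidermis were Dsc1 (299 against 130 to 157), Dmkn (2730 against 1025 to 1289), Cdh1 (119 against 48 to 58) and Klf4 (189 against 74.7 to 84.9), with the lipid gene Acer1 (55.5 against 25 to 26.7). Genes expressed more widely were Cdkn1a (121 against 38.2 to 50.5), Xpc (3.77 against 1.88 to 1.96), Casp8 (10.2 against 5.75 to 6.42), Cat (75.4 against 38.4 to 40.6), Cebpa (99.4 against 35.9 to 46.4) and Eef1a1 (5764 against 3073 to 3364), with Ly6a (183 against 78.8 to 94.3), Acp5 (44.6 against 21.4 to 23.5) and Bglap2 (0.14 against 0). By mean log2 CPM, which uses TMM-scaled counts and not a share of all TPM, 3 of its lists were also marked as high. They were barrier lipids (7.3 against 6.67 to 6.76), epithelial transcription factors (7.08 against 6.52 to 6.61) and p53 targets in metabolism and repair (3.88 against 3.64 to 3.68).

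Bone replicate 1 was marked as low for the blood and marrow genes Gata1 (23 against 33 to 33.8), Igll1 (3.06 against 16.9 to 19.6), Prdx2 (217 against 288 to 296), Cxcl12 (116 against 314 to 350) and Lepr (9.5 against 20.6 to 22.2). It was also low for Mdm2 (24.1 against 30.7 to 31.5), Neil3 (16.9 against 20.4), Polh (7.82 against 12.8 to 13.8) and Rpl41 (461 against 930 to 958). By mean log2 CPM its lists of blood transcription factors (5.93 against 6.4 to 6.47), the marrow niche (5.51 against 5.82 to 5.86), cytokines (0.87 against 1.31 to 1.38) and caspases and inhibitors (5.33 against 5.51 to 5.54) were low. Its lists of the HOX genes (0.99 against 0.27 to 0.38) and limb identity (1.96 against 0.89 to 1.06) were high. So were those of melanocytes (0.33 against -0.05 to -0.01) and suprabasal and cornified cells (-0.84 against -1.51), both near the lower end of detection, with Krt1 (0.13 against 0.01 to 0.03), Krt71 (0.05 against 0) and Scd3 (0.09 against 0 to 0.01) TPM.

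The other libraries were marked less often. Bone replicate 2 was low for Ltbp4 (4.34 against 7.53 to 7.88) and Cst6 (0.22 against 1.1 to 1.26) TPM and for the list of p53 arrest targets (4.21 against 4.37 to 4.4), and high for the list of mitosis (6.78 against 6.6 to 6.63). Bone replicate 3 was high for Rsad2 (66.3 against 46.5 to 49.8) and Brca2 (13.8 against 11.5 to 11.8) TPM. Skin replicate 2 was high for Myh4, a myosin of skeletal muscle (77.6 against 0.07 to 8.41 TPM), and skin replicate 3 for Krt71, of the inner root sheath (2.92 against 0.21 to 0.42 TPM), while its list of macrophages (2.96 against 4.33 to 4.6) was low. Skin replicate 4 was low for Scd3 (43.9 against 121 to 128) and Atrip (3.1 against 5.05 to 5.15) TPM, and high for the lists of mature B cells (0.31 against -0.13 to -0.08) and azurophil granules (-1.26 against -1.9 to -1.84). The remaining marks are at 0.15 TPM or less, in bone Acer1 (0.02 against 0), Dct (0.15 against 0.03 to 0.05), Krt14 (0.03 against 0), Grhl3 (0.03 against 0) and Tyrp1 (0.1 against 0) TPM, and in skin Dntt (0.02 against 0), Sost (0.02 against 0), Hoxa13 (0.03 against 0) and Krt86 (0.02 against 0) TPM.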

How the results depend on the processing

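The counts over all genes kept within 1.5 times of the 5782 higher in skin and 5686 higher in bone under all 21 alternatives. They were 6321 and 7068 with DESeq2, 6687 and 6561 with limma voom, 3884 and 4781 on log2(TPM + 0.1), and 5428 and 4758 among protein-coding genes alone. Leaving out 1 library in turn, or replicate 1 of both tissues, gave 5307 to 6552 and 5350 to 6462. Without a filter on low counts the median over all genes moved to -0.53, because 38746 genes entered. Genes restricted to bone fell from 231 to 128 when TPM were rescaled to nuclear protein-coding genes, a scale on which no other gene can count. A fit with the replicate number as a block gave 4934 and 4954, and 21 of 285 tested genes named here lost their call and 2 gained one. The numbers do not pair the libraries by the deviations from the tissue means: same-numbered libraries had correlations of -0.30, -0.34, -0.15 and -0.31, and none correlated best with its own number. Of the named genes tested, 214 of 285 kept direction and call under all alternatives, and none of them reversed direction where either fit called it. The list medians near 0 changed sign. That of collagens (-0.06) ran from -0.32 to 0.26 over the omissions and was 0.01 among protein-coding genes without replicate 1. That of reference genes (0.06) ran from -0.30 to 0.17, and was -0.21 with voom, -0.01 with library totals, -0.01 with the replicate block, -0.07 on either TPM scale and -0.29 among protein-coding genes without replicate 1. That of base excision (0.04) ran from -0.09 to 0.19, and was -0.17 on log2(TPM + 1), -0.25 on log2(TPM + 0.1) and -0.03 among protein-coding genes without replicate 1. That of oxidant defence (0.01) ran from -0.18 to 0.10, and was -0.14 with voom, -0.03 with library totals, -0.04 with a filter of 1 CPM, -0.08 and -0.09 on the TPM scales and -0.16 among protein-coding genes without replicate 1. That of TGF-beta (-0.14) ran from -0.29 to 0.09. The cause of these sign changes was not tested. Of 56 lists, 4 turned from more members higher in one tissue to more in the other under at least 1 alternative: reference genes, limb identity, oxidant defence and base excision. Depth limits the genes with 0 to 3 counts in a tissue, whose ratios are bounds or wide intervals.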
